A study of Mus musculus with 25 samples.

Results

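The 10 genes described here belong to the integrated stress response and to amino acid transport: Atf4, Ddit3, Trib3, Asns, Chac1, Sesn2, Slc7a5, Slc3a2, Slc7a11 and Stc2. They were taken by name out of 19505 gene symbols with at least 1 transcript cluster in the probe table, and for a symbol with several clusters the brightest by mean level was taken. Each of the 10 symbols was found. Their levels were compared in invariant natural killer T (iNKT) cells, T lymphocytes that recognise lipids bound to CD1d and mature in the thymus. The cells were sorted from the thymus of C57BL/6 mice as positive for TCR beta and the CD1d tetramer and negative for CD24. NK1.1-negative cells, either CD44-negative (stage 1) or CD44-positive (stage 2), shared an array as S1_S2, and stage 3 cells (S3) were positive for CD44 and NK1.1. Wild-type (WT) cells gave 6 arrays at S1_S2 and 7 at S3, and cells lacking the Hippo pathway kinase Mst1, encoded by Stk4, gave 4 and 5 (Mst1KO). Cells labelled as lacking both Mst1 and the related kinase Mst2 gave 2 arrays at S1_S2 and 1 at S3 (dKOMst). The labels name no floxed allele, Cre driver, age or treatment, and do not say whether animals were pooled.

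The integrated stress response starts when kinases that sense missing amino acids, unfolded protein, double-stranded RNA or heme shortage phosphorylate the translation factor eIF2. General translation then slows, while the Atf4 messenger, through its upstream open reading frames, is translated more. ATF4 protein enters the nucleus, often with a C/EBP partner, and turns on genes for amino acid synthesis, amino acid import and, under lasting stress, cell death. In T cells the same import machinery feeds growth, since activated T cells need large neutral amino acids to keep mTORC1 active. An array reads messenger levels only, so the translation of Atf4, which the pathway mainly controls, was not measured.

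ATF4 and C/EBP partners bind a composite sequence, the C/EBP-ATF response element, and promoters of members were searched for its letters. Promoter sequences came from RefSeq (GRCm38.p6), which held a window from 250 bases upstream to 50 bases downstream of the start for 9 of the 10 genes, all but Slc7a5. The letters TGATGNAA, on either strand, were in 4 of these 9 windows (Asns, Trib3, Chac1 and Slc7a11) and in 4.06% of 27025 promoters of the same length. The upstream sequences of Asns and Stc2 are given whole because these genes moved in opposite directions in Mst1KO cells, and for Chac1 and Slc7a11 the stretch around the match is given. Each is written 5′ to 3′ on the gene's strand, with matches to TGATGNAA or its reverse complement in capitals.

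Asns upstream, chr6:7693210-7693459, minus strand: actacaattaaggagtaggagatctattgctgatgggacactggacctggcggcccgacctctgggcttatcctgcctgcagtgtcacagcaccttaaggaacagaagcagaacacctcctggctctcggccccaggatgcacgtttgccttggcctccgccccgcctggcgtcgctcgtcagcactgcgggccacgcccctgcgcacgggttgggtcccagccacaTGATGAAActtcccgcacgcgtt

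Stc2 upstream, chr11:31370062-31370311, minus strand: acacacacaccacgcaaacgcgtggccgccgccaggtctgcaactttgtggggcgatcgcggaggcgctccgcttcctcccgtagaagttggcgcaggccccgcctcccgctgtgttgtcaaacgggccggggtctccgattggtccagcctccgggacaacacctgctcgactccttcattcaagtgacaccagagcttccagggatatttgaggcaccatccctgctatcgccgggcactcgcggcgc

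Chac1, chr2:119351033-119351072, plus strand: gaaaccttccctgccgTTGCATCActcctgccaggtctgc

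Slc7a11, chr3:50443637-50443695, minus strand: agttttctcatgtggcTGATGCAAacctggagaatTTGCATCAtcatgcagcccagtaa

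The Asns match started 23 bases upstream of the start. The Chac1 match lay 193 bases upstream, and Slc7a11 held 2 matches of opposite orientation, at 66 and 47 bases upstream. In Trib3 the match, TTACATCA, lay 15 bases after the start. The upstream sequence of Stc2 holds no capitals, which says only that these letters are not in this window. TGACNNNGC, the core of the antioxidant response element, was in 3 of 9 members (Asns, Sesn2 and Stc2) against 12.5% of promoters. The E-box CACGTG (7.24% of promoters) and the endoplasmic reticulum stress element (0.13%) were in 0 of 9. In Asns, where 2 of these motifs were found, they did not overlap. These matches are descriptions of sequence and no binding was measured. Their part in any change of level was not tested.

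Levels are log2 values as deposited, so 1 unit is a doubling. The median of the negative control probes was 6.19 to 6.59 on the arrays, positive controls exceeded it by 3.27 to 3.83, and 24.8% of the 22206 clusters tested read above it on no array. The numbers in the array titles fall in 2 ranges with a gap between them, a first run (16 arrays, with every Mst1KO array) and a second run (9 arrays, with every dKOMst array), and WT arrays of both stages lie in both. The run was a term of the model, and it passed the test for 1362 clusters and for 0 of the 10 genes. Separate animals are not named for the arrays of a group, so each p-value rests on array-to-array spread that may be technical. In sorted bulk cells, fewer cells of a type and less RNA per cell cannot be told apart. Stk4 read 10.18 to 10.74 in WT and 9.22 to 9.40 in Mst1KO at S1_S2, without overlap, and 9.69 to 10.73 and 9.43 to 10.13 at S3, with overlap. In the arrays labelled dKOMst it read 9.63 and 10.27 at S1_S2, below the 3 WT S1_S2 arrays of the same run (10.54 to 10.74), and 10.08 at S3, below the 3 WT S3 arrays of that run (10.49 to 10.73). Only the reading of 9.63 lay below the WT arrays of its stage in both runs. The fitted dKOMst difference at S1_S2 was -0.74 ± 0.20 (SE; limma adjusted p = 0.0829). Whether the probes of Stk4 lie in the deleted part is not given. No cluster used here was named Stk3, which encodes Mst2.

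The T cell genes Cd3d, Cd3e, Cd3g and 5 further markers of the lineage were above the negative controls on every array. Markers of other cell types varied in WT S1_S2. Of 9 myeloid and dendritic markers, 1 was above the controls on every array of this group and 4 on no array. For 6 markers of double-positive thymocytes these counts were 3 and 3, and for 6 of thymic epithelium 2 and 1. They were 3 and 0 for 7 B cell markers and 3 and 0 for 3 erythroid markers. The negative-control range is drawn behind the 10 genes in the plot of levels.

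**Figure D1:**
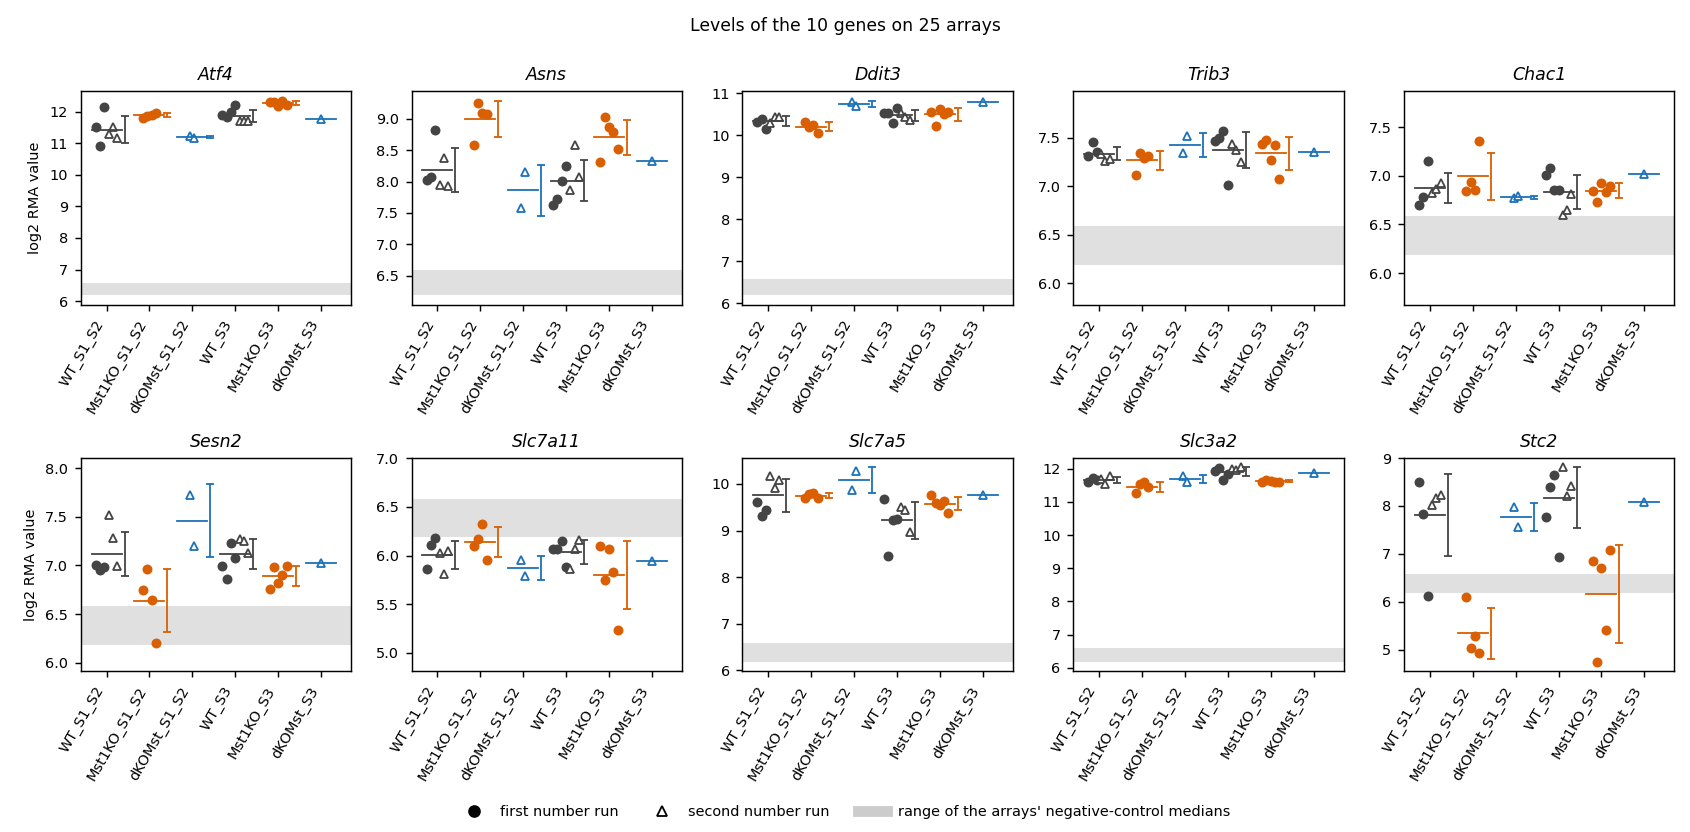
Log2 level of each of the 10 genes (vertical axis, own scale for each gene) on each of the 25 arrays, by group. Points are arrays (filled circles first run, open triangles second run), horizontal lines are group means, bars beside them are SD where a group has at least 2 arrays, and the grey band is the range of the arrays' negative-control medians. Stc2 readings of Mst1KO S1_S2 cells lay under the band, Slc7a11 lay within or under it in every group, and Asns was highest in the Mst1KO groups.

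From S1_S2 to S3 in WT cells, Atf4 and Slc3a2 rose and Slc7a5 fell, and in Mst1KO cells at S3 Asns was higher and Stc2 and Slc3a2 lower than in WT. In the WT stage comparison 3 of the 10 genes passed the test (limma, adjusted p under 0.05 over all clusters), where 16.9% of all clusters did. The split was 2 higher (8.18% of clusters) and 1 lower (8.75%), and the median difference of the 10 was 0.03 against 0.01 for all clusters. In Mst1KO against WT at S3, 3 of the 10 passed, 1 higher and 2 lower, where 6.37% of clusters passed (3.73% higher and 2.64% lower), and the medians of the members and of all clusters were both -0.05. In Mst1KO against WT at S1_S2, 1 of 10 passed, lower, where 0.522% of clusters passed (0.329% higher and 0.194% lower), with a median of -0.02 against -0.01. Both Mst1KO comparisons and the WT stage comparison share WT arrays, and no agreement between them was computed.

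From S1_S2 to S3 within Mst1KO cells 1 of 10 genes passed, Ddit3, higher, where 10.2% of clusters did (5.58% higher and 4.62% lower), and the medians were 0.12 for the members and -0.04 for all clusters. The test of whether the Mst1KO effect differed between stages called 0 of 10 genes (0.158% of clusters), with 1 gene, Slc7a11, at an unadjusted p under 0.05. In dKOMst against WT at S1_S2, limma called 0 of 10 genes (0.923% of clusters), with Ddit3 alone at an unadjusted p under 0.05. In dKOMst against Mst1KO at S1_S2 it called 0 of 10 (0.171% of clusters), with 4 at an unadjusted p under 0.05: Asns, Ddit3, Sesn2 and Stc2. Over all 22206 clusters the count at an unadjusted p under 0.05 was 2107 for the effect between stages. It was 2361 for dKOMst against WT and 1887 for dKOMst against Mst1KO. limma was the only tool run.

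**Figure D2:**
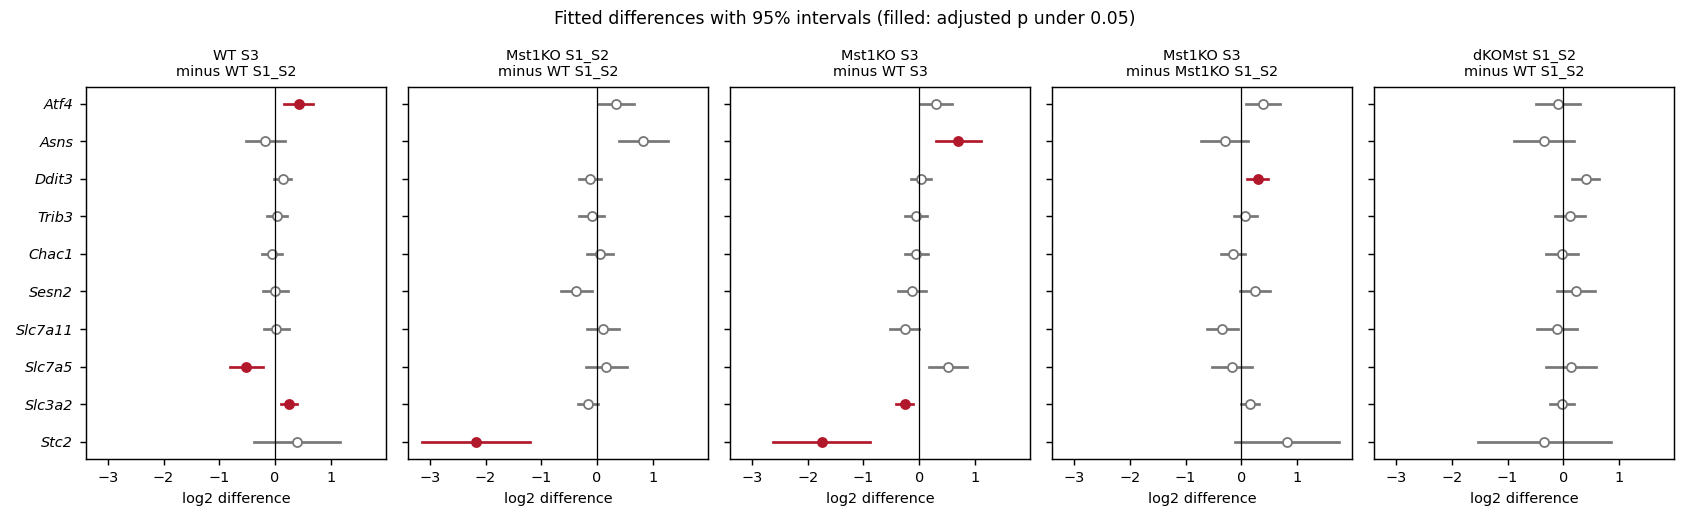
Fitted log2 difference (horizontal axis) of the 10 genes in 5 comparisons, with 95% intervals from limma and filled red points for an adjusted p under 0.05. Stc2 has the largest differences and the widest intervals, its Mst1KO readings lie partly under the negative controls, and the Slc7a11 differences compare readings that are all under them.

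Atf4, the transcription factor at the head of the response, read at the lowest, median and highest 10.90, 11.40 and 12.16 in WT S1_S2 cells and 11.71, 11.83 and 12.22 in WT S3 cells. The groups overlapped, and in each the spread was wider among arrays of the first run. The level rose by 0.42 ± 0.12 (SE), or 1.34-fold, with a limma adjusted p of 0.0177. Within the runs the difference was 0.45 in the first, where the groups overlapped, and 0.39 in the second, where they did not. The call was lost in each run alone (adjusted p of 0.188 and 0.0623), with only the WT groups fitted (0.0866), and without WT S1_S2 replicate 2 (0.27, adjusted p = 0.0559), the lowest array of its group. In Mst1KO cells Atf4 read 11.81, 11.85, 11.90 and 11.96 at S1_S2 and 12.31, 12.29, 12.18, 12.34 and 12.22 at S3. These groups did not overlap each other, and the difference of 0.39 ± 0.15 (SE) had a limma adjusted p of 0.101, and of 0.00496 when only the Mst1KO groups were fitted. Against WT, the Mst1KO differences were 0.33 ± 0.16 at S1_S2 (adjusted p = 0.544) and 0.30 ± 0.14 at S3 (adjusted p = 0.192), neither past the threshold. Without WT S1_S2 replicate 3, the highest array of its group, the S1_S2 difference was 0.53 with an adjusted p of 0.048. The dKOMst arrays read 11.22 and 11.18 at S1_S2 and 11.77 at S3. By group mean over the arrays of both runs Atf4 was thus lowest in dKOMst S1_S2 (11.20) and WT S1_S2 (11.42), followed by dKOMst S3, WT S3 (11.86), Mst1KO S1_S2 (11.88) and Mst1KO S3 (12.27). WT S3 and Mst1KO S1_S2 differed by less than their spread.

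Ddit3 encodes CHOP, a C/EBP family factor that ATF4 turns on and that takes part in stress-induced cell death. The array holds 2 clusters of this gene, and the brighter one, whose values are given unless stated, has an identifier marked as unmapped, while the identifier of the other carries a chromosome number. The brighter cluster read 10.14, 10.35 and 10.44 at the lowest, median and highest in WT S1_S2 cells and 10.29, 10.53 and 10.65 in WT S3 cells, and the difference of 0.14 ± 0.08 (SE) did not pass the test (limma adjusted p = 0.259). The Mst1KO arrays read 10.31, 10.20, 10.24 and 10.06 at S1_S2 and 10.56, 10.23, 10.62, 10.51 and 10.56 at S3. All but 1 of the S3 arrays were above every S1_S2 array. The rise of 0.29 ± 0.09 (SE), or 1.23-fold, passed with a limma adjusted p of 0.042. It held in 6 of 20 other settings, with the same sign in each, and was lost when arrays were quantile normalized again (0.23, adjusted p = 0.106). Leaving out any 1 of Mst1KO S1_S2 replicates 2, 3 and 4 or Mst1KO S3 replicates 1, 3, 4 and 5 also ended the call, at adjusted p values of 0.0711 to 0.156. The mapped Ddit3 cluster, with a lower mean (10.09 against 10.44), gave 0.21 ± 0.09 (adjusted p = 0.13) for the same comparison and -0.05 in place of 0.14 for the WT stages.

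The highest Ddit3 readings were in the dKOMst arrays, 10.80 and 10.70 at S1_S2 and 10.79 at S3. Both S1_S2 readings lay above all 6 WT arrays, by 0.40 ± 0.12 (SE) in the fit, with a limma adjusted p of 0.121 and a 95% interval from 0.16 to 0.65. Within the second run alone the difference was 0.35, again without overlap. Against Mst1KO S1_S2 the difference was 0.53 ± 0.14 (adjusted p = 0.148). The mapped cluster gave 0.35 ± 0.11 (adjusted p = 0.164) against WT and 0.48 ± 0.13 (adjusted p = 0.178) against Mst1KO. None of these 4 values passed the threshold.

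Trib3 encodes a pseudokinase that ATF4 and CHOP induce and that restrains ATF4 in return. It read between 7.01 and 7.57 over all 25 arrays, above the negative controls on each. Group means ran from 7.26 in Mst1KO S1_S2 to 7.43 in dKOMst S1_S2, neighbours in that order overlapped, and no comparison passed. The WT stage difference was 0.03, with a 95% interval of -0.14 to 0.21, and the Mst1KO difference at S3 was -0.06 (-0.26 to 0.14). Chac1, whose enzyme breaks down glutathione and which lies under ATF4 and CHOP, read between 6.60 and 7.35, close to the negative controls. Its WT stage difference was -0.05 (-0.23 to 0.13) and its Mst1KO difference at S3 was -0.05 (-0.26 to 0.16). So near the controls, a change in either gene could be understated.

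Sesn2 encodes a leucine sensor that holds mTORC1 back when leucine is low, and it too is an ATF4 target. It read 6.95, 7.00 and 7.51 at the lowest, median and highest in WT S1_S2 cells, and 6.86, 7.13 and 7.28 in WT S3 cells. In Mst1KO cells the readings were 6.75, 6.97, 6.64 and 6.20 at S1_S2, where 3 of 4 were above the array's negative-control median, and 6.75, 6.98, 6.82, 6.91 and 7.00 at S3. The dKOMst arrays read 7.73 and 7.20 at S1_S2 and 7.03 at S3. Both dKOMst S1_S2 readings were above all 4 Mst1KO ones, a difference of 0.60 ± 0.20 (SE) with a limma adjusted p of 0.321. Against WT the Mst1KO S1_S2 difference was -0.37 ± 0.14 (adjusted p = 0.363).

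Asns encodes asparagine synthetase, which makes asparagine from aspartate and glutamine and is a standard readout of the amino acid response. In WT cells it read 7.93, 8.04 and 8.83 at the lowest, median and highest at S1_S2 and 7.63, 8.01 and 8.58 at S3, with a stage difference of -0.17 ± 0.17 (SE; limma adjusted p = 0.594). Mst1KO arrays read 8.32, 9.03, 8.87, 8.79 and 8.52 at S3. Only the lowest and the next lowest of these lay within the WT range. Asns was higher in Mst1KO than in WT at S3 by 0.71 ± 0.19 (SE), or 1.63-fold, with a limma adjusted p of 0.0309. Within the first run the groups did not overlap, and the difference was 0.80. The call was lost without any 1 of WT S3 replicates 1, 2 and 3 or Mst1KO S3 replicates 2, 3 and 4, where differences of 0.61 to 0.71 had adjusted p values of 0.0535 to 0.0828. It was also lost with only arrays that had Y-linked signal (0.62, limma adjusted p = 0.169). At S1_S2 the Mst1KO arrays read 8.59, 9.25, 9.09 and 9.08, and 3 of these 4 lay above every WT array. This difference was 0.83 ± 0.21 (SE), or 1.78-fold, and did not pass over all clusters (limma adjusted p = 0.0991). Without WT S1_S2 replicate 3, the highest WT array, it was 1.04 with an adjusted p of 0.0107, and without the run term it was 0.81 with an adjusted p of 0.0488. The Mst1KO effect differed between stages by -0.12 ± 0.27 (SE; adjusted p = 0.915).

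In the dKOMst arrays Asns read 7.57 and 8.15 at S1_S2 and 8.32 at S3. Both S1_S2 readings lay below all 4 Mst1KO readings, a difference of -1.18 ± 0.31 (SE) with a limma adjusted p of 0.147. Without the run term it was -1.14 with an adjusted p of 0.03, but all Mst1KO arrays are in the first run and all dKOMst arrays in the second. Against WT the dKOMst difference was -0.35 ± 0.26 (adjusted p = 0.734). By group mean the order was dKOMst S1_S2 (7.86), WT S3 (8.02), WT S1_S2 (8.19), dKOMst S3, Mst1KO S3 (8.70) and Mst1KO S1_S2 (9.0). Among the first 4 of these, neighbours differed by less than their spread, as did both Mst1KO groups.

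Slc7a5 encodes LAT1, the transporter that brings leucine and other large neutral amino acids into T cells, and Slc3a2 encodes CD98, the heavy chain that carries LAT1 and several related light chains to the cell surface. Slc7a5 read 9.31, 9.77 and 10.17 at the lowest, median and highest in WT S1_S2 cells and 8.46, 9.25 and 9.67 in WT S3 cells. It fell by 0.52 on the log2 scale (SE 0.14; 1.43-fold) with a limma adjusted p of 0.0115. The difference was -0.31 within the first run, where the groups overlapped, and -0.76 within the second, where they did not. Slc3a2 read 11.55, 11.69 and 11.79 in WT S1_S2 cells and 11.66, 11.95 and 12.04 in WT S3 cells, and it rose by 0.25 ± 0.07 (SE), or 1.19-fold, with a limma adjusted p of 0.00986. Here the difference was 0.20 within the first run, with overlap, and 0.31 within the second, without. The light chain gene and the heavy chain gene thus moved in opposite directions between the WT stages. Each call held when any 1 WT array was left out. Within the first run alone each was lost (adjusted p of 0.418 for Slc7a5 and 0.282 for Slc3a2), and within the second alone that of Slc3a2 was (0.116). With only the WT groups fitted, the call of Slc7a5 was lost (limma adjusted p = 0.0549).

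In Mst1KO cells Slc3a2 read 11.27, 11.53, 11.61 and 11.44 at S1_S2 and 11.61, 11.65, 11.65, 11.60 and 11.59 at S3. All 5 S3 readings lay below all 7 WT S3 readings. The difference of -0.26 ± 0.08 (SE), or 1.20-fold lower, had a limma adjusted p of 0.0428. The gap was narrow, the highest Mst1KO array being at 11.65 and the lowest WT array, replicate 3, at 11.66. Without any 1 Mst1KO S3 array, or any 1 WT S3 array other than replicate 3, the difference was -0.23 to -0.27 and the adjusted p 0.0513 to 0.0919. The call was also lost in the first run alone (limma adjusted p = 0.138), with only the compared groups fitted (0.132) and with only arrays that had Y-linked signal (0.137). Slc7a5 read 9.70, 9.79, 9.81 and 9.70 in Mst1KO S1_S2 cells and 9.77, 9.58, 9.56, 9.63 and 9.37 in Mst1KO S3 cells. Against WT S3 this was a difference of 0.52 ± 0.16 (SE) with a limma adjusted p of 0.055. It passed without WT S3 replicate 1 (0.67, adjusted p = 0.0097), the highest WT S3 array. At S1_S2 the Mst1KO differences were 0.17 ± 0.18 for Slc7a5 (adjusted p = 0.89) and -0.17 ± 0.09 for Slc3a2 (adjusted p = 0.617). The dKOMst arrays read 9.88 and 10.28 for Slc7a5 and 11.78 and 11.61 for Slc3a2 at S1_S2, within the WT range but for the reading of 10.28.

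By group mean Slc7a5 ran from 9.22 in WT S3 through 9.58 in Mst1KO S3, 9.75 in Mst1KO S1_S2 and 9.76 in WT S1_S2 to 10.08 in dKOMst S1_S2, with the dKOMst S3 array at 9.76. These means pool the runs, and in the first run alone the Mst1KO S1_S2 readings of Slc7a5 lay above all 3 WT S1_S2 readings (9.31 to 9.62), by 0.29. Slc3a2 ran from 11.46 in Mst1KO S1_S2 through 11.62 in Mst1KO S3, 11.67 in WT S1_S2 and 11.69 in dKOMst S1_S2 to 11.92 in WT S3, with the dKOMst S3 array at 11.87. Over the arrays of both runs each neighbouring pair of groups in either order overlapped, and the tests above give the differences that passed.

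Slc7a11 encodes xCT, the cystine importer that also pairs with CD98 and feeds glutathione synthesis. It read between 5.23 and 6.32 and was above the array's negative-control median on 0 of 25 arrays. No fold change is given for it, and its level in these cells was not measurable here.

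Stc2 encodes stanniocalcin 2, a secreted glycoprotein induced by ATF4 during endoplasmic reticulum stress. It showed the largest differences of the 10 genes and the largest spread. WT cells read 6.13, 8.10 and 8.49 at the lowest, median and highest at S1_S2 and 6.93, 8.39 and 8.81 at S3, with a stage difference of 0.40 ± 0.37 (SE; limma adjusted p = 0.571). The Mst1KO S1_S2 arrays read 6.11, 5.03, 5.28 and 4.94, and none of these 4 was above its negative-control median, whereas 5 of 6 WT arrays were. Stc2 was lower in Mst1KO, with a fitted difference of -2.18 ± 0.47 (SE; limma adjusted p = 0.0318). Over both runs the WT mean was 2.47-fold above the control median, taken as the floor of the Mst1KO arrays. That fold has no run term, every Mst1KO array is in the first run, and the fitted level was 0.60 ± 0.37 (SE) higher in the second. Within the first run, where the WT arrays read 8.49, 7.84 and 6.13, the fold is smaller. The groups did not overlap, although the lowest WT array (6.13, replicate 3) lay next to the highest Mst1KO array (6.11), both under the controls. Without that WT array the fitted difference was -2.63. The call was lost without any 1 of WT S1_S2 replicates 1 and 2 or Mst1KO S1_S2 replicates 2, 3 and 4 (-1.86 to -2.16, adjusted p of 0.0912 to 0.135). It was also lost in the first run alone (limma adjusted p = 0.206), with only the compared groups fitted (0.0869) and with only arrays that had Y-linked signal (0.411).

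At S3 the Mst1KO arrays read 6.85, 4.75, 6.71, 5.42 and 7.07 for Stc2, and 3 of 5 were above their negative-control median. The highest of these was just above the lowest WT S3 array. Stc2 was lower in Mst1KO, with a fitted difference of -1.75 ± 0.42 (SE) and a limma adjusted p of 0.0163. Within the first run the difference was -1.77, with overlap. Without Mst1KO S3 replicate 2, the lowest array, it was -1.40 with an adjusted p of 0.0512. The call was also lost in the first run alone (limma adjusted p = 0.0710), with only the compared groups fitted (0.0609) and with only arrays that had Y-linked signal (0.0856). The Mst1KO effects at S3 and S1_S2 differed by 0.42 ± 0.58 (SE; adjusted p = 0.855). The dKOMst arrays read 7.98 and 7.56 at S1_S2 and 8.08 at S3, all above every Mst1KO reading of either stage. The fitted dKOMst difference at S1_S2 was 1.83 ± 0.69 against Mst1KO (limma adjusted p = 0.407) and -0.34 ± 0.58 against WT (adjusted p = 0.919). The dKOMst S1_S2 mean was 2.40-fold above the control median as the floor of Mst1KO S1_S2. That fold has no run term, and these 2 groups lie in different runs, so it is not a minimum.

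WT S1_S2 replicate 3 was at the edge of its group for several of these genes: it was highest for Atf4 (12.16), Asns (8.83), Chac1 (7.16) and Slc7a11 (6.18, under the controls) and lowest for Ddit3 (10.14) and Stc2 (6.13). For each of these 6 genes, picked by the position of that array, the Mst1KO S1_S2 mean lay on the same side of the WT mean. Among the rest, Sesn2 and Slc7a5 did likewise by means over both runs. Trib3 went the other way (7.36 on replicate 3, means of 7.33 in WT and 7.26 in Mst1KO), and for Slc3a2 replicate 3 lay at the WT mean (11.67). Among the WT S1_S2 arrays of its own run, the first, replicate 3 was the middle reading for Sesn2, Slc7a5, Trib3 and Slc3a2. In that run Slc7a5 was higher in Mst1KO S1_S2 than in WT S1_S2 by 0.29, without overlap. The share of all clusters on the same side was not computed. Over all clusters WT S1_S2 replicate 3 stood 0.327 (root mean square, log2) from the mean of the other WT S1_S2 arrays, against 0.223 to 0.276 for those. Its Stk4 reading was 10.18, the lowest of WT S1_S2 and above all Mst1KO S1_S2 readings.

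**Figure D3:**
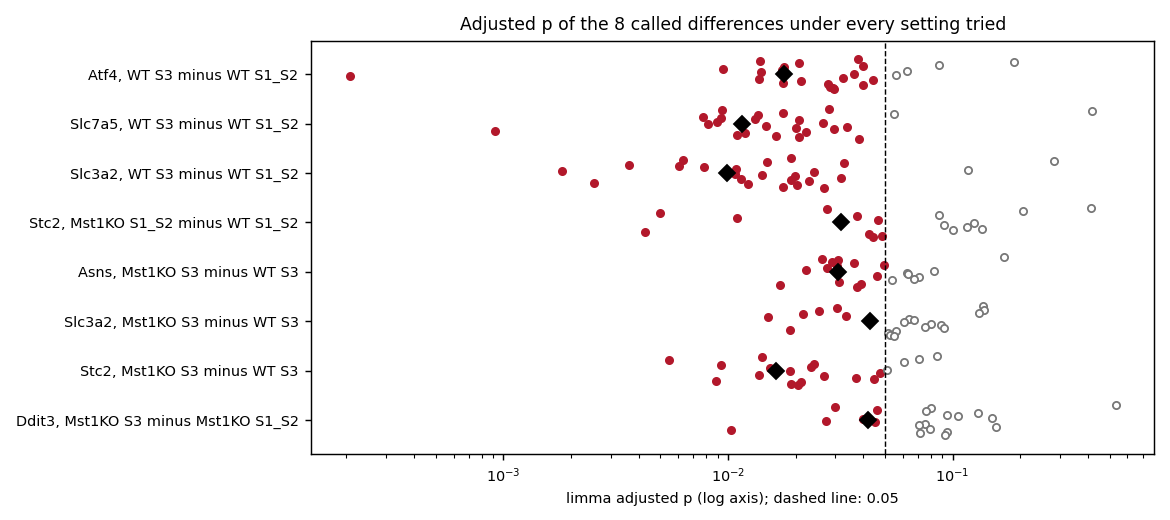
Limma adjusted p (horizontal log axis) of the 8 differences of members that passed the threshold: the reported fit (black diamonds) and each other setting (filled red under 0.05, open otherwise). The 3 WT stage differences stayed under the dashed line at 0.05 in 20 to 22 of 24 settings, while Slc3a2 in Mst1KO S3 and Ddit3 between the Mst1KO stages each did so in 6 of 20.

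The other genes of the pathway were counted on lists of the response's arms, beside the shares of all clusters called, which were 16.9% for the WT stages (8.18% higher, 8.75% lower) and 6.37% for Mst1KO at S3 (3.73% higher, 2.64% lower). For Mst1KO at S1_S2 the share was 0.522% (0.329% higher, 0.194% lower). At an unadjusted p under 0.05 were 1921 of the 22206 clusters in Mst1KO against WT at S1_S2 and 5244 at S3. Among 21 other targets of ATF4 and CHOP, 4 were higher and 2 lower at WT S3 than at WT S1_S2 (median 0.09; 0.01 over all clusters), and the largest changes were those of Bcat1, a branched-chain aminotransferase, at -0.89 ± 0.18 (SE; limma adjusted p = 0.00109), Herpud1, which serves degradation at the endoplasmic reticulum, at 0.78 ± 0.08, and the disulfide oxidase gene Ero1a at -0.66 ± 0.09. In Mst1KO at S1_S2 limma called 0 of 21, with 4 at an unadjusted p under 0.05. At S3, 3 were higher in Mst1KO (Atf3 at 1.45 ± 0.29, Eif4ebp1 at 0.37 and Ero1a at 0.36) and 1 lower (Gadd45a, named after its value was seen, at -0.29), with a median of -0.08 against -0.05 over all clusters. Atf3 is also an immediate early gene.

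Of 10 enzymes of serine and one-carbon metabolism, which are ATF4 targets in many cells, 6 were lower at WT S3 than at WT S1_S2 and 0 higher (median -0.34), where 8.75% of all clusters were lower, while Atf4 itself rose between these groups. Phgdh, the first enzyme of serine synthesis, fell by 0.83 on the log2 scale (SE 0.10; limma adjusted p = 1.13e-06). Psat1 fell by 0.64 and Mthfd2 by 0.63. In Mst1KO at S3, where 6.37% of clusters were called, limma called 0 of the 10, with 4 at an unadjusted p under 0.05 and a median of 0.27. Of 18 aminoacyl-tRNA synthetase genes, 6 were lower and 2 higher at WT S3 (median -0.16), and in Mst1KO at S3 5 were higher and 0 lower (median 0.24): Cars at 0.89 ± 0.16, Iars at 0.45 and Mars1 at 0.43.

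Other amino acid transporters that passed at the WT stages were all lower at S3. Of 21 measured, 6 were lower and 0 higher at WT S3 than at WT S1_S2 (median -0.17). Slc7a6, a further light chain of CD98, fell by 0.76 on the log2 scale, Slc36a4 fell by 0.71 and Slc43a2 by 0.70. In Mst1KO at S3, 2 of 21 were higher, Slc7a6 by 0.58 ± 0.16 (SE) and the arginine transporter Slc7a1 by 0.38 ± 0.10 (SE; limma adjusted p of 0.0326 and 0.0322).

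Upstream of Atf4, of 16 genes for eIF2 kinases, eIF2, eIF2B and the eIF2 phosphatase, 2 were higher and 3 lower at WT S3, and limma called 0 in either Mst1KO comparison, with 0 at S1_S2 and 7 at S3 at an unadjusted p under 0.05. Among 17 genes of the endoplasmic reticulum stress arms that run beside ATF4, 2 were higher and 1 lower at WT S3, a share near the 16.9% of all clusters, and in Mst1KO S3 Ern1 (-0.45) and Dnajb9 (-0.31) were lower and 0 higher. Ern1, which encodes the sensor IRE1, was the only one of the 17 that passed in dKOMst S1_S2 against WT (0.69), where 0.923% of all clusters did. Of 12 genes of glutathione synthesis and NRF2, 2 were higher and 2 lower at WT S3, with Gclm at -1.07, Ggct at 0.61 and Gpx4 at 0.45. In Mst1KO at S1_S2, where 0.522% of all clusters were called, 1 gene of these 8 pathway lists passed. It was Gclc, a subunit gene of the enzyme that starts glutathione synthesis, higher by 0.72 ± 0.16 (SE; limma adjusted p = 0.0309). Of 24 genes of the sestrins and mTORC1 amino acid sensing, 5 were higher and 2 lower at WT S3 (Rragd at 1.00, Sesn1 at 0.53 and Castor1 at -0.66), and limma called 0 in either Mst1KO comparison, with 3 at S1_S2 and 4 at S3 at an unadjusted p under 0.05.

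**Figure D4:**
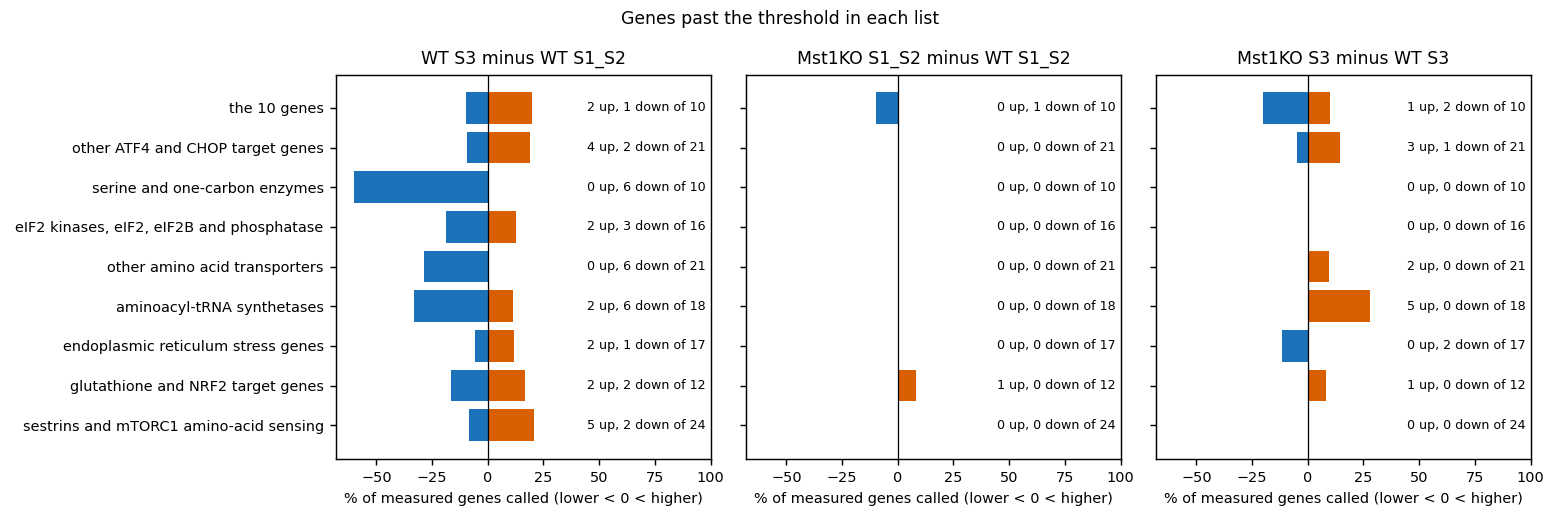
Share of measured genes that passed the limma threshold (horizontal axis, percent; orange to the right higher, blue to the left lower) among the 10 genes and in 8 lists of the pathway, for 3 comparisons, with counts at the right. Serine and one-carbon enzymes and amino acid transporters passed in the lower direction alone at WT S3 against WT S1_S2, and tRNA synthetases in the higher direction alone at Mst1KO S3.

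Several other programmes moved with the same groups. Beside the shares given above, 5.58% of all clusters were called higher and 4.62% lower between the Mst1KO stages. All 15 mitotic genes fell from WT S1_S2 to WT S3 (median -2.05, Mki67 at -2.52), and the list's mean level was 8.63 to 9.67 in WT S1_S2 and 6.87 to 7.65 in WT S3. In Mst1KO at S3 11 of 15 were higher (median 0.84, Mki67 at 1.42 ± 0.13), with a list mean of 7.64 to 8.10, and limma called 0 of 15 at S1_S2, with 1 at an unadjusted p under 0.05. Between the Mst1KO stages 14 of 15 fell. Immediate early genes, which also respond to handling of cells, were higher at WT S3 than at WT S1_S2 for 8 of 14 and lower for 2 (median 0.48, Fos at 0.84 ± 0.16), and between the Mst1KO stages 6 of 14 were higher and 0 lower. Against WT they were higher in Mst1KO for 4 of 14 at S1_S2 (Fos at 1.40 ± 0.20), where 0.329% of all clusters were called higher. At S3 5 of 14 were higher (Fos at 0.79 ± 0.18), where 3.73% of all clusters were. Among 6 markers of double-positive thymocytes, 2 were higher in Mst1KO S3 (Cd8b1 at 0.73 ± 0.18 and Cd24a at 0.52 ± 0.15, CD24 being a sort marker that was gated out). The list's mean there was 7.18 to 7.49, above the 6.51 to 7.04 of WT S3, and 1 of the 6 was above the negative controls on no array of the group, against 2 in WT S3. Between the Mst1KO stages, where Ddit3 was called, 3 of the 6 were higher at S3 (Dntt at 1.06, Cd8a at 0.67 and Cd24a at 0.55), and 1 was between the WT stages (Dntt at 0.91). Among 9 myeloid and dendritic markers Lyz2 was higher at S3 in WT (1.00 ± 0.11) and in Mst1KO (1.02 ± 0.13), and Lyz2 (0.70 ± 0.16) and Itgam (0.93 ± 0.18) were higher in dKOMst S1_S2 than in WT S1_S2, where 0.923% of clusters were called. The myeloid list's mean was 5.86 to 6.16 in WT S1_S2 and 6.06 to 6.16 in dKOMst S1_S2. Markers of myeloid cells, B cells, thymic epithelium and erythroid cells had 0 genes called by limma in either Mst1KO comparison, with 0 at S1_S2 and, at S3, 2 of 9 myeloid, 1 of 6 epithelial and 1 of 3 erythroid genes at an unadjusted p under 0.05. Of all 22206 clusters 5244 were at such a p at S3. Between the Mst1KO stages the epithelial marker Epcam was higher at S3. Of 7 genes shared with NK cells, which mature iNKT cells also express, 6 rose from WT S1_S2 to WT S3 (median 2.22) and 5 from Mst1KO S1_S2 to Mst1KO S3. In Mst1KO against WT at S3 Eomes and Tyrobp were higher and Ncr1 lower. In dKOMst against WT at S1_S2 Eomes and Fcer1g were higher. Klrb1c, the gene of the sort marker NK1.1, was lower there (-1.18 ± 0.25, SE; limma adjusted p = 0.0198). The 4 arrays without Y-linked signal, from female mice by that measure, were Mst1KO replicates 3 and 4 of each stage. The part of each of these in the values of the 10 genes was not tested.

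The single dKOMst S3 array has no replicate, and it was set beside the 3 WT S3 arrays of the second run without a test. It lay above all 3 for Ddit3 by 0.35 from their mean, for Slc7a5 by 0.46, for Chac1 by 0.33 and for Atf4 by 0.06. It lay below all 3 for Stc2 (-0.40), Sesn2 (-0.19) and Slc3a2 (-0.13), and within their range for Asns, Trib3 and Slc7a11. None of these reached 1 log2 unit, which 0.919% of all clusters did. The share of all clusters outside the range of these 3 WT arrays was not computed. A single array can lie outside 3 others without a difference between the groups. For Atf4 the 3 WT arrays spanned only 11.706 to 11.711.

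Likeness of pattern was measured as the root mean square difference over the 25 arrays after centring each cluster on its mean, for the 6 genes that passed in some comparison. The array patterns closest to Slc7a5 were those of Sec63 (0.231), a subunit of the translocation machinery of the endoplasmic reticulum, and Shmt2 (0.233), a mitochondrial enzyme of serine breakdown, followed by Hpcal1. Those closest to Slc3a2 were Maml1 (0.113), Cd3e (0.115), a subunit of the T cell receptor complex, and Slc10a3. Atf4 was most like Dcbld2 (0.204, where its own SD was 0.395), Cryba1 and Cyth4. Asns was most like Hpn (0.302, own SD 0.478), Il18r1 and Vwa7, and Ddit3 was most like Slc44a2 (0.133, own SD 0.191), Uap1l1 and Rbck1. Stc2 was most like Etv5 (0.907, own SD 1.27), Abhd4 and Rnf122, and its distance was the largest, as was its own SD. No other member of the 10 was among these closest genes.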

How the data were processed

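Total RNA of sorted cells was amplified, labelled with biotin and hybridised to Clariom S arrays, per the labels. Values are log2 RMA levels as the authors deposited them. Per the submitters' processing notes, the software was Affymetrix Expression Console 1.1. The build behind the arrays was not given in the sources used here. Positions are those of RefSeq's promoter table (GRCm38.p6). Of 28846 items 6640 controls were left out. limma 3.58.1 (R 4.3.3) was run with lmFit and eBayes on all 22206 transcript clusters and 25 arrays, with 6 group means and a term for the number run, leaving 18 residual degrees of freedom. Benjamini-Hochberg adjustment covered every cluster of a comparison, and a call is an adjusted p under 0.05.

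Replicate numbers follow accession order. The 10 genes and the gene lists were chosen with earlier results of these data known. From each list up to 3 called genes per comparison with the largest change were named, with Mki67, Fos, Stk4 and the 10 genes whatever their test. A reading at or under its array's negative-control median counts as not above background. Where a whole group read so, the fold is given against that median, from group means over all runs and without a run term.

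Alternatives dropped the run term or made it random, fitted the compared groups or a single run, normalized again, kept brighter clusters, used a trended robust variance, kept arrays with Y-linked signal, used the other Ddit3 cluster, paired S1_S2 and S3 arrays by title number and left out each array in turn.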

Additional observations from a re-analysis of the deposited data

Results flagged for a closer look

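Among 40 combinations of a gene and a group of 4 to 7 arrays, 2 held an array far from the rest by Dixon's ratio, and chance alone flags about 1 in 20 groups. Stc2 read 6.13 on WT S1_S2 replicate 3, where the other 5 arrays of the group read 7.84 to 8.49. Ddit3 read 10.23 on Mst1KO S3 replicate 2, where the other 4 read 10.51 to 10.62.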

How the results depend on the processing

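The labels state no pairing, but within a genotype and run the title numbers of S1_S2 and S3 arrays lie a constant step apart, giving 10 pairs of WT or Mst1KO arrays. As an alternative chosen after seeing the data, these pairs were fitted with a replicate block. Deviations from the group means correlated at 0.0562 to 0.171 within pairs, over 0.1 in 4 of 10, and each S1_S2 array correlated better with its own partner than with the other paired S3 arrays of its genotype and run, a hint from the data rather than the design. The block gave 3 genes for the WT stages (adjusted p of 0.0095 for Atf4), 0 between the Mst1KO stages (Ddit3 at 0.28, adjusted p = 0.149; 0.0939 for the same arrays without the block, also 0 genes) and 0.0405% for the effect between stages (0.0675% without it). Asns was lower at S3 in each of the 4 Mst1KO pairs (-0.25 ± 0.12, SE; adjusted p = 0.266). Each called difference of the 10 genes kept its sign in every setting, and the cause of lost calls was not tested. Counts are of the 10 genes, and percentages are of all clusters tested. Without the run term Mst1KO against WT called 2 genes at S1_S2 and 3.29% at S3, the test of the Mst1KO effect between stages 0.0766%, and dKOMst against Mst1KO 3 genes (Asns at -1.14, Ddit3 at 0.55 and Sesn2 at 0.82) and 0.878%. With the run as a random block Mst1KO at S3 had 3.86% and dKOMst against Mst1KO 0.365%. With only the compared groups fitted, the WT stages had 1 gene, Mst1KO at S1_S2 0 genes and 0.252%, Mst1KO at S3 1 gene and 2.26%, the effect between stages 0.104% and dKOMst against WT 0.27%. In the first run alone there were 0 genes and 8.65% for the WT stages, 0 and 0.288% for Mst1KO at S1_S2, 1 and 3.06% at S3, 0 genes between the Mst1KO stages and 0.045% for the effect between stages. In the second run alone the WT stages had 1 gene and 8.57%, and dKOMst against WT 0.306%. Quantile normalization left 0 genes between the Mst1KO stages. A trended robust variance gave 1.54% for dKOMst against WT and 0.27% against Mst1KO. With only arrays that had Y-linked signal, which drops 4 Mst1KO arrays, there were 0 genes and 0.104% for Mst1KO at S1_S2, 0 and 2.14% at S3, 0 and 4.29% between the Mst1KO stages, 0% for the effect between stages and 0.0315% for dKOMst against Mst1KO.

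Leaving out each array in turn gave 2 to 3 genes and 15.1% to 16.9% for the WT stages, 0 to 3 and 0.297% to 0.784% for Mst1KO at S1_S2, 0 to 2 and 3.53% to 6.3% for Mst1KO at S3, 0 to 1 and 7.52% to 9.63% between the Mst1KO stages, 0 and 0.063% to 0.275% for the effect between stages, 0 and 0.149% to 1.04% for dKOMst against WT, and 0 and 0.018% to 0.234% for dKOMst against Mst1KO. With 1 array left in dKOMst S1_S2, its spread is assumed like that of the other groups. Fits of a single run or of only the compared groups were not run where they hold 1 of the groups or where run and genotype cannot be told apart. The number of arrays limits precision, and Slc7a11, Chac1, Sesn2 and, in Mst1KO cells, Stc2 lay near or under the negative controls.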

Other observations

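Within WT groups, Atf4 was set against 8 other genes of the 10 over the arrays of each stage, 16 relations in all. The strongest was with Asns over the 6 WT S1_S2 arrays (Pearson r 0.85, Spearman rho 0.54; r 0.68 without the 2 arrays farthest from the median of Atf4). None of the 16 passed after adjustment (lowest exact permutation p 0.0889, adjusted 0.667). Each group spans both runs, whose 3 or 4 arrays are too few for a value of their own.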
